A study of Mus musculus with 12 samples.

Results

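The comparison described here set C2C12 cells that had been given siRNA against BRG1 and then moved to differentiation medium (siBRG1) against wild-type C2C12 cells in growth medium (GM). Its members were the 2 siBRG1 arrays and the 2 GM arrays of the 12 arrays in the series, chosen by their labels, and all 10346 measured genes were tested. C2C12 is an established mouse myoblast line, and every sample came from it. Per the labels, siBRG1 cells received a pool of siRNAs (SMARTpool) in growth medium with 15% fetal bovine serum, spent 36 h before the change to ITS differentiation medium and 18 h in it until harvest. GM cells stayed in growth medium, and their transfection entry reads control, which leaves unstated whether they saw a reagent. The siBRG1 and GM groups therefore differed in medium, in siRNA and in BRG1 at once, and these cannot be told apart within the comparison itself. The 2 arrays of cells given a scrambled siRNA (siScramble), which shared the medium and the transfection with siBRG1, served to show which changes were smaller after the knockdown, and the 2 arrays of wild-type cells in differentiation medium (DM) are given as values. The question was which changes of differentiation still took place after a partial loss of BRG1 and which were incomplete.

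BRG1, encoded by Smarca4, is 1 of the alternative ATPases of the BAF (SWI/SNF) complexes, which move nucleosomes along DNA and open regulatory regions to transcription factors. When serum is withdrawn, myoblasts leave the cell cycle and the muscle factors MyoD and myogenin, with MEF2 proteins, switch on the genes of the contractile apparatus. MyoD binds DNA at the short motif called the E-box and recruits BAF complexes to muscle genes, which is the setting in which BRG1 is known in this cell line.

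Values are log2 signals after background correction and quantile normalization, and a difference of 1 is a 2-fold change. A gene was called when its limma adjusted p (Benjamini-Hochberg, over all 10346 genes) was under 0.05. The median standard error of a difference was 0.31, since each group held 2 arrays, and nothing in the labels shows that these were separate cultures, so the p-values may measure technical spread only. An exact permutation test of 2 arrays against 2 cannot go below p = 0.333, so every test rests on the model fitted across genes. Between 28.1% and 34.0% of the probes were detected per array, and mean signal ran from 335.4 to 839.2, highest on GM replicate 1. Replicates of siBRG1 correlated at r = 0.988 over genes and those of GM at 0.985, against 0.945 for DM. The second siBRG1 array shared a BeadChip with the second GM array, and the first shared one with the first siScramble array. Myod1 and the muscle cadherin Cdh15, which mark the myoblast lineage, were detected on all these arrays, whereas the myoblast factor Myf5 was not detected on either GM array.

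Smarca4 itself lay at 6.77 and 6.38 on the siBRG1 arrays, at 7.74 and 7.59 on the GM arrays and at 7.77 and 7.20 on the siScramble arrays. Both siBRG1 arrays were below all 4 others. The siBRG1 level was 53.0% of the siScramble level (log2 difference -0.92, 95% confidence interval -1.71 to -0.12, limma adjusted p = 0.515 over all genes). The interval took in 0 with median scaling over all probes, without background correction, in the authors' values, without siBRG1 replicate 2 (-0.72) and without siScramble replicate 1 (-0.63). Against GM the difference was -1.10 (SE 0.37) with an adjusted p of 0.0999. Smarca2, the alternative ATPase BRM, lay at 9.29 and 9.47 in siBRG1 and 9.46 and 9.36 in GM. None of the 22 measured BAF genes was called by limma against GM, where 7.1% of all genes were, or against siScramble, where 0.28% were. At an unadjusted p under 0.05, Smarca4 was lower in both comparisons, Bcl7a was higher than in GM (0.72) and Arid1a was higher than in siScramble (1.16).

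Against GM, 735 genes differed in siBRG1 (7.1% of those tested): 453 were higher (4.38%) and 282 lower (2.73%). At an unadjusted p under 0.05 there were 1908 (18.4%). The median size of a called rise was 1.54 and that of a called fall 1.39 on the log2 scale, and the arrays of the groups did not overlap for any called gene, as they did not for 55% of all genes. The split between higher and lower depended on the scaling: with median scaling over all probes, which put the median of all genes at -0.28, 94 genes were higher and 99 lower. When 1 array was left out in turn, the number called was 325 without siBRG1 replicate 1, 362 without siBRG1 replicate 2, 362 without GM replicate 1 and 355 without GM replicate 2. With the same test, siScramble differed from GM in 1268 genes (12.3%), 652 higher (6.3%) and 616 lower (5.95%), and the same scaling put its all-gene median at -0.58. With the BeadChip as a block, 715 genes (fixed) or 845 genes (random) differed between siBRG1 and GM. In bulk RNA, fewer cells of a kind and less RNA per cell cannot be told apart.

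**Figure D1:**
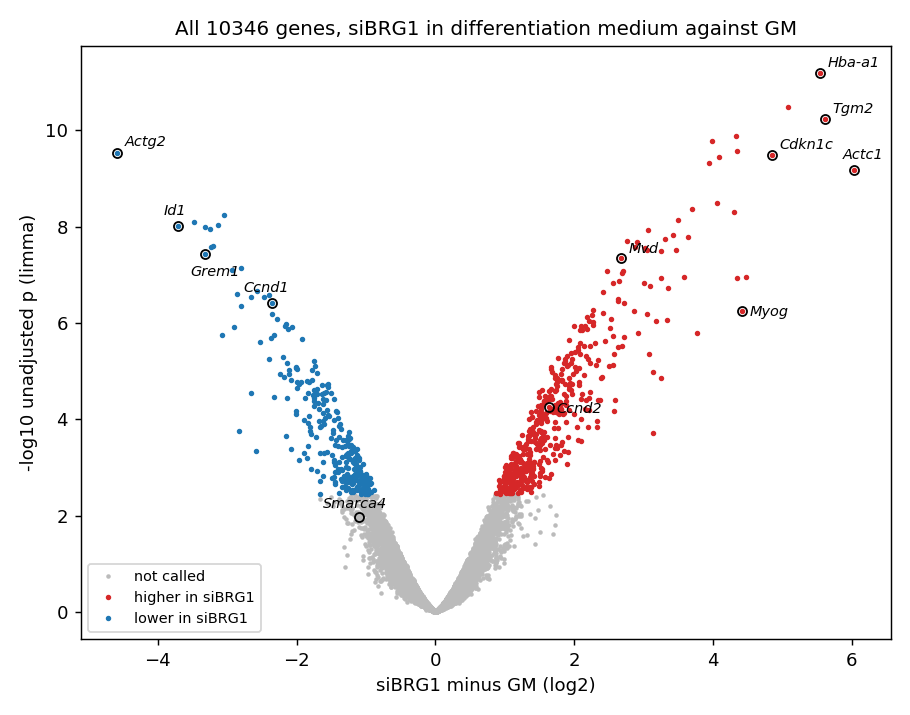
Log2 difference of siBRG1 minus GM (x axis) against the unadjusted limma p on a -log10 scale (y axis) for all 10346 genes. The 453 genes called higher are red and the 282 called lower are blue. Actc1 lies farthest right at 6.03 and Actg2 farthest left at -4.58, while Smarca4 at -1.10 lies below the called genes.

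The largest rise was that of Actc1, the cardiac alpha-actin that myoblasts use when they first build thin filaments. It read 6.40 and 6.24 in GM, 12.54 and 12.16 in siBRG1, and 13.53 and 13.23 in siScramble. The siBRG1 arrays were far above GM and below both siScramble arrays, and on the BeadChip that held both groups the difference was 5.92. The rise was 65.2-fold (log2 difference 6.03, SE 0.42, adjusted p = 6.22e-07), and a second Actc1 probe gave 5.09. Myog, which encodes myogenin, read 5.64 and 4.63 in GM, detected on 1 of the 2 arrays, and 9.70 and 9.41 in siBRG1. The rise of 4.42 (SE 0.52, adjusted p = 9.19e-05) stood beside siScramble levels of 11.17 and 10.17, above both siBRG1 arrays, and a dimmer second Myog probe gave 0.82. Myod1, the factor upstream of Myog, read 7.64 and 7.71 in siBRG1 against 8.61 and 8.90 in GM, a difference of -1.08 that did not pass (adjusted p = 0.105). Of the 8 myogenic regulators measured, Myog was the only member called in siBRG1 (12.5%, beside 7.1% of all genes). In siScramble 2 of the 8 were called (25.0%, beside 12.3% of all genes).

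The 250 bases upstream of the start of Actc1 and Myog are shown because Actc1 had the largest rise and Myog is the muscle regulator that was called. In Actc1 (chr2:114052876-114053125, minus strand, GRCm38.p6) the capitals mark a match to the CArG box, the motif of serum response factor. The Actc1 window was also searched for the E-box CANNTG and held no match. In Myog (chr1:134289754-134290003, plus strand, GRCm38.p6) the capitals mark matches to the E-box CANNTG, 138 and 12 bases before the start. Both windows come from RefSeq.
Actc1: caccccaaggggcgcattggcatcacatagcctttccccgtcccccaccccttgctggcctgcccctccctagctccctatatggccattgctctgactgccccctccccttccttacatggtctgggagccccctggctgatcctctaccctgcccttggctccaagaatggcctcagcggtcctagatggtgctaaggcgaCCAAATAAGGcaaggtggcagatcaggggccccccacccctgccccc
Myog: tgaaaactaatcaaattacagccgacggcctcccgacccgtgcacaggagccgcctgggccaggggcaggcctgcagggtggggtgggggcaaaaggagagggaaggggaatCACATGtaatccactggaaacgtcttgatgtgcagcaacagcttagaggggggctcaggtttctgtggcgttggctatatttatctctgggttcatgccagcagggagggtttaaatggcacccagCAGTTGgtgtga
For the 74 measured genes of the 5 contractile, calcium and energy lists, 54 upstream windows were found. Over both strands, the E-box CANNTG stood in 46 of the 54 (85.2%). Its share was 66.0% of all 27025 windows and 57.5% of the 8397 windows of genes tested. The form CAGCTG stood in 21 of those 54 windows (38.9%), in 12.8% of all windows and in 11.6% of those of genes tested. Every CAGCTG match is also a CANNTG match. The CArG box stood in 4 of the 54 windows (7.41%), in 1.4% of all and in 1.35% of those of genes tested. The MEF2 site, also searched, stood in 10 of the 54 (18.5%), in 3.01% of all and in 1.8% of those of genes tested. These are counts of letters, not of bound sites.

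**Figure D2:**
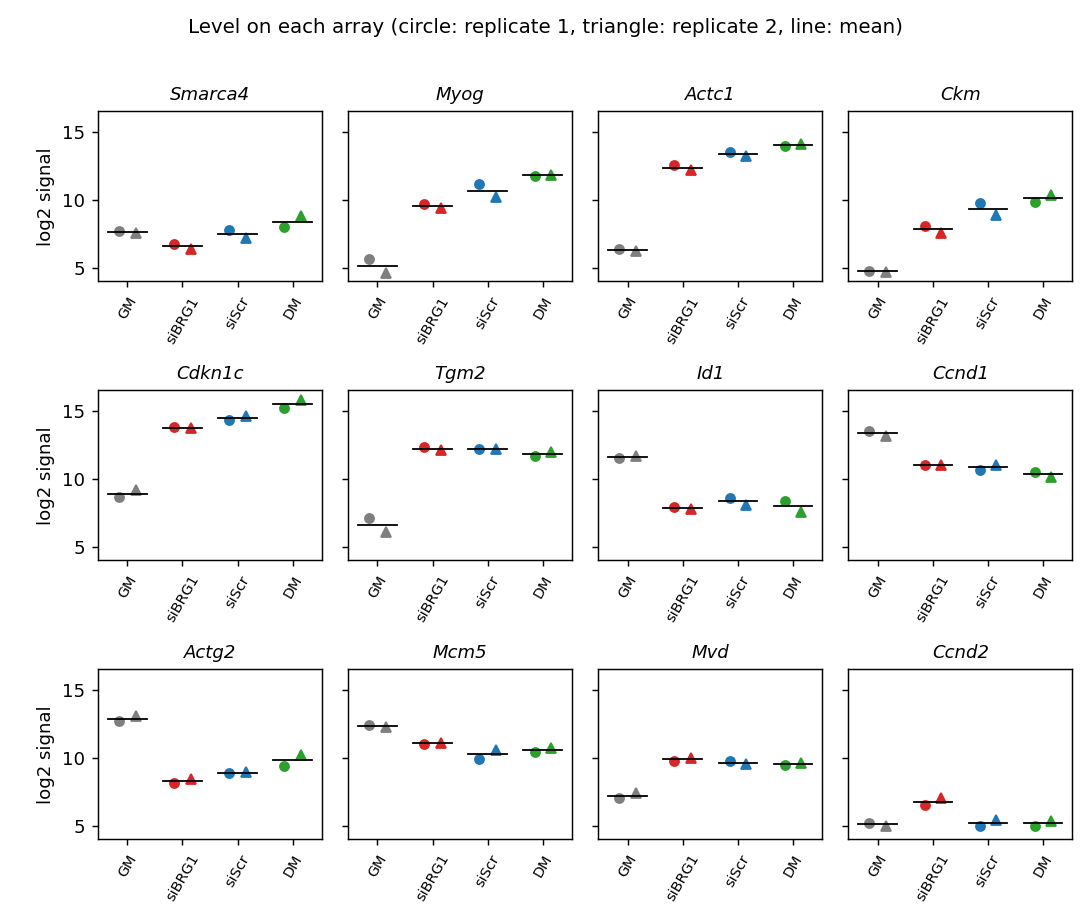
Log2 signal (y axis) of 12 genes on the GM, siBRG1, siScramble (siScr) and DM arrays, with a circle for replicate 1, a triangle for replicate 2 and a line for the mean. Myog, Actc1, Ckm and Cdkn1c stand above GM and below siScramble on both siBRG1 arrays, Tgm2 and Mvd stand at about the siScramble level, and Ccnd2 is raised on the siBRG1 arrays and not on the siScramble arrays.

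Thin filament genes, which encode the sarcomeric actins, troponins, tropomyosins and their caps, still rose: 9 of 16 measured members were called higher in siBRG1 and none lower, and 10 were called in siScramble. The list median was 1.38 in siBRG1 and 2.46 in siScramble, where the median of all genes was 0.01 in both. Of all genes, 4.38% were called higher and 2.73% lower in siBRG1, and 6.3% and 5.95% in siScramble. Counts for this and the later lists stand beside those shares. Fast troponin C, Tnnc2, read 8.02 and 7.58 in GM, 12.33 and 11.95 in siBRG1 and 13.48 and 13.05 in siScramble. Its rise of 4.34 (adjusted p = 2.67e-05) left it below both siScramble arrays. Fast troponin T, Tnnt3, rose by 3.58 and fast troponin I, Tnni2, by 3.18, beside 4.92 and 4.48 in siScramble. Skeletal alpha-actin, Acta1, was already at 9.42 and 9.33 in GM and reached 11.97 and 11.41, a 4.97-fold rise (adjusted p = 0.0006), against 13.14 and 12.98 in siScramble. Of the 16 members, 14 had a lower mean in siBRG1 than in siScramble, with a median difference of -0.90, and none of the 16 passed the limma test of that difference, while 8 were lower at an unadjusted p under 0.05.

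Thick filament genes gave fewer calls. Of 8 measured, the light chains Myl1 and Mylpf rose (by 3.09, adjusted p = 3.52e-05, and by 3.13, adjusted p = 0.00576), whereas 4 were called in siScramble. Other Myl1 probes gave 3.52 and 1.83. Mylpf lost its call without siBRG1 replicate 1 (its level was 12.98 and 12.11 on the siBRG1 arrays) and without GM replicate 2. Perinatal myosin heavy chain, Myh8, read 5.21 and 5.25 in GM, 7.60 and 6.32 in siBRG1 and 8.68 and 7.80 in siScramble. Its difference from GM, 1.73, did not pass (adjusted p = 0.0964), and its siBRG1 arrays were themselves far apart. The embryonic light chain Myl4 differed by 1.55 (adjusted p = 0.0512).

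Among 18 measured genes of the Z-disc, the M-band and filament assembly, 7 rose in siBRG1, none fell, and 9 rose in siScramble, with medians of 0.76 and 1.37. Klhl41, a kelch protein that stabilises thin filaments, read 5.49 and 4.80 in GM, 9.68 and 9.23 in siBRG1 and 10.65 and 10.77 in siScramble. Its rise was 4.31 (adjusted p = 3.69e-06). Pdlim3, a Z-disc partner of alpha-actinin, rose by 3.95 in siBRG1 and 4.39 in siScramble. The myosin chaperone Unc45b was not detected on either GM array and rose at least 7.01-fold (adjusted p = 9.92e-05). A bound of this kind takes the GM level as no lower than the faintest detected probe of each array. Titin, Ttn, rose by 3.35 at its brightest probe, while 4 dimmer probes gave -0.09 to 1.28 and did not pass. All 18 members had a lower mean in siBRG1 than in siScramble, none by the adjusted limma test and 8 at an unadjusted p under 0.05.

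Excitation and contraction are coupled through the calcium store of the sarcoplasmic reticulum. Of 15 genes of this apparatus, 5 rose and 1 fell in siBRG1, with 8 and 0 in siScramble, and the medians were 1.01 and 1.53. Hrc, a calcium-binding protein of the store, read 5.15 and 5.42 in GM, 9.96 and 9.58 in siBRG1 and 11.28 and 10.51 in siScramble, a rise of 4.48 (adjusted p = 2.67e-05). The calcium pump Atp2a1 rose by 3.13 and the release channel Ryr1 by 2.58, beside 4.10 and 3.70 in siScramble. The other Ryr1 probes gave 2.73, 1.91 and 0.13, the last without passing. The other risers were Stac3 (1.52) and Srl (2.03). The junctophilin Jph2 went the other way, from 8.57 and 8.58 in GM to 7.21 and 7.16 in siBRG1 (-1.39, adjusted p = 0.00456), and its call was lost without siBRG1 replicate 2.

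In muscle energy metabolism 6 of 17 genes rose and 1, the pyruvate dehydrogenase kinase Pdk4, fell (-1.79), against 8 and 1 in siScramble. Muscle creatine kinase, Ckm, was not detected on the GM arrays (4.75 and 4.73) and read 8.06 and 7.57 in siBRG1, at least 5.84-fold higher (adjusted p = 0.000414). The siScramble arrays, at 9.74 and 8.89, were both higher still, and the siBRG1 level was 35.4% of theirs. Myoglobin, Mb, rose from 6.61 and 6.31 to 9.52 and 9.40, and the muscle phosphoglycerate mutase Pgam2 rose by 3.34, while the second Mb probe gave 1.82 and did not pass. The cytochrome oxidase subunit Cox6a2 rose by 1.89 (adjusted p = 0.0177), a call lost without siBRG1 replicate 1, without either GM array, without background correction, in the authors' values and with median scaling over all probes.

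Lists of fusion, junction and membrane genes had 1 or 2 calls each in siBRG1. Mymk, the fusion protein myomaker, rose by 2.58 (8.35 and 8.46 in siBRG1, 5.65 and 6.01 in GM, 9.81 and 9.26 in siScramble; adjusted p = 0.0026), a call lost without background correction and in the authors' values. It was the only 1 of 16 fusion genes called in siBRG1, a share near the 7.1% of all genes, where siScramble had 4 beside 12.3% of all genes, and the list medians were -0.07 and 0.49. Cdh15 and the integrin Itga7 differed from GM by 1.10 and 0.92 without passing (adjusted p = 0.0777 and 0.0726), beside 1.91 and 1.49 in siScramble. At the neuromuscular junction the embryonic acetylcholine receptor subunit Chrng rose by 2.23 (adjusted p = 0.00141; second probe 0.47), 1 of 9 genes beside 7.1% of all, and its call was lost with median scaling over all probes. Chrna1, the alpha subunit, lay at 12.38 and 12.71 in siBRG1 and 12.25 and 12.70 in GM, overlapping ranges. In the dystrophin complex Dtna rose by 2.17 and Sgcd was at least 2.05-fold lower, 2 of 9 genes (22.2%) beside 7.1% of all. The Sgcd call was lost when any of the 4 arrays was left out. Sgca was below siScramble by 1.31 without passing (limma adjusted p = 0.0544). In siScramble 2 junction and 3 dystrophin genes were called. The junction medians were 0.08 in siBRG1 and 0.56 in siScramble, and the dystrophin medians -0.06 and 0.48.

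**Figure D3:**
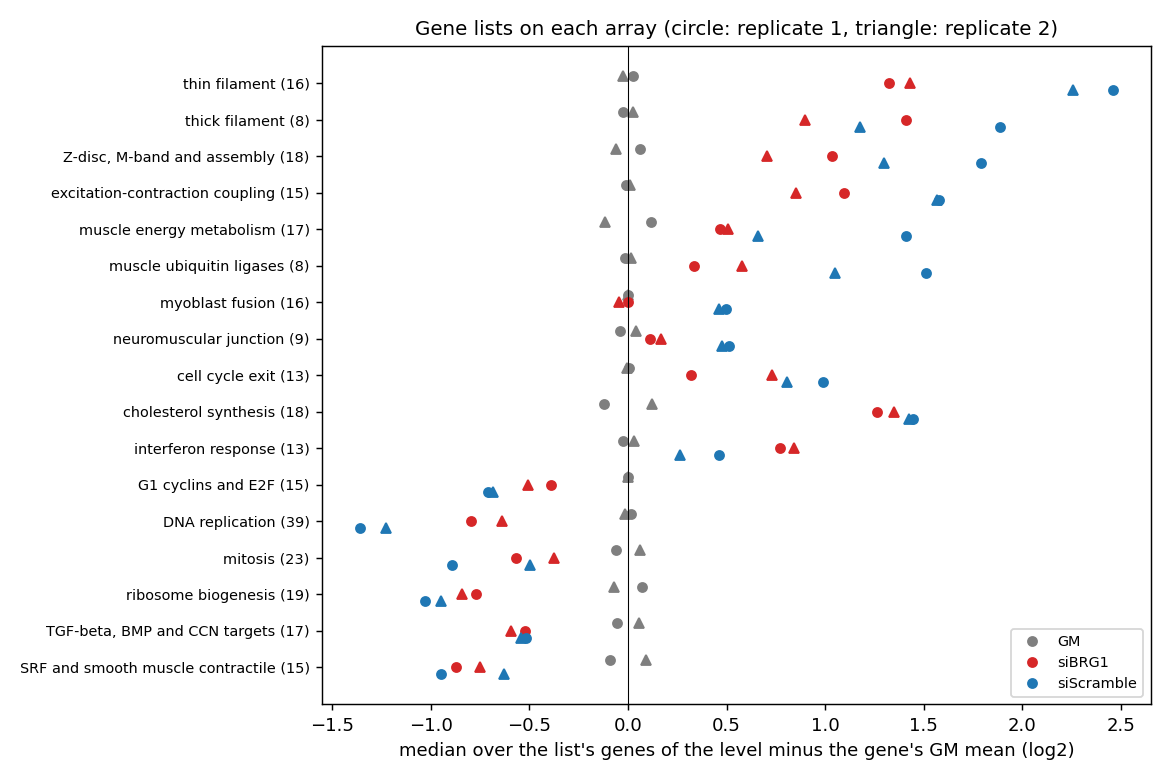
Median over the genes of each list (number measured in brackets) of the level minus the gene's own GM mean, in log2 units, for each GM, siBRG1 and siScramble array, with a circle for replicate 1 and a triangle for replicate 2. In the thin filament list the siBRG1 arrays stand at 1.32 and 1.43 and the siScramble arrays at 2.46 and 2.26, and in the DNA replication list they stand at -0.80 and -0.64 and at -1.36 and -1.23, whereas in the cholesterol list all 4 lie between 1.26 and 1.44.

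Cdkn1c and Cdkn1a, inhibitors of cyclin-dependent kinases that hold cells out of the cell cycle, both rose. Cdkn1c, which encodes p57, read 8.65 and 9.15 in GM, 13.78 and 13.71 in siBRG1 and 14.35 and 14.60 in siScramble. It rose 28.8-fold (log2 difference 4.85, SE 0.32, adjusted p = 4.12e-07) and stayed below both siScramble arrays. Cdkn1a, which encodes p21, rose by 2.05 (12.63 and 12.94 against 10.90 and 10.57 in GM; adjusted p = 0.00035), a call lost with median scaling over all probes. The retinoblastoma gene Rb1 (1.14), Btg1 (1.03) and Ccng1 (0.95) completed the 5 of 13 exit genes that rose, and siScramble had 6. The list gave 2 whenever 1 of the 4 arrays was left out.

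Cyclin D1, Ccnd1, the G1 cyclin of growing myoblasts, fell 5.11-fold, from 13.54 and 13.13 in GM to 10.98 and 10.98 in siBRG1 (adjusted p = 6.58e-05), and siScramble stood at 10.66 and 11.01, a range that holds the siBRG1 arrays. Cyclin E2, Ccne2, also fell (-1.40, adjusted p = 0.0233), a call lost when any of the 4 arrays was left out. Cyclin D2, Ccnd2, did the reverse: it was at 5.23 and 5.01 in GM, detected on 1 of 2 arrays, and at 6.51 and 7.01 in siBRG1 (1.64, adjusted p = 0.0023), while siScramble stayed at 4.98 and 5.44. Its siBRG1 arrays were above those of GM, siScramble and DM, and cells given siRNA against BAF60c read 6.31 and 6.73. It passed the test against siScramble as well (1.55, adjusted p = 0.0426), a call lost in 11 of 17 alternatives, among them the BeadChip as a fixed block, the authors' values and each array left out. A second Ccnd2 probe gave 0.69 against GM and did not pass. E2f2 rose by 1.73 in siBRG1 and by 1.44 in siScramble.

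The DNA replication list had far fewer calls in siBRG1 than in siScramble. These genes encode the MCM helicase, the origin complex, the polymerases and the enzymes of nucleotide supply, which myoblasts lower as they stop dividing. In siBRG1 7 of 39 fell and none rose, with a list median of -0.71, whereas in siScramble 30 of 39 fell, with a median of -1.22. Of all genes, 2.73% were called lower in siBRG1 and 5.95% in siScramble. Orc6 read 12.75 and 12.81 in GM, 10.94 and 11.11 in siBRG1 and 10.63 and 11.03 in siScramble. It fell by 1.76 (adjusted p = 0.00154), with siBRG1 and siScramble ranges that overlapped. Mcm5 read 12.41 and 12.23 in GM, 11.04 and 11.09 in siBRG1 and 9.93 and 10.58 in siScramble, and its fall of 1.26 (adjusted p = 0.0121) was 61.0% of the log2 change in siScramble. Rrm2, a subunit of ribonucleotide reductase, fell by 1.67, with other probes at -1.29 and 0.31. Every 1 of the 39 had a higher mean in siBRG1 than in siScramble (median difference 0.46). The difference passed for Cdc6 alone, a call kept in 9 of 17 alternatives, and for 14 at an unadjusted p under 0.05. The number of falls was 2 or 3 when any of the 4 arrays was left out and 0 with median scaling over all probes, where the list median was -1.12. In the mitosis list none of 23 genes was called by limma in siBRG1 (3 were lower at an unadjusted p under 0.05) and 1 in siScramble (13 at an unadjusted p under 0.05), beside 7.1% and 12.3% of all genes called, with medians of -0.48 and -0.71.

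The upstream window of Mcm6 (chr1:128359706-128359955, minus strand, GRCm38.p6, from RefSeq) is shown as an example of this list that carries the E2F motif. Mcm6 lay at 11.37 and 11.28 in GM, 10.71 and 10.82 in siBRG1 and 10.32 and 10.38 in siScramble, so its siBRG1 arrays sat between the other groups, and the difference from GM (-0.57, adjusted p = 0.317) was not called. The capitals mark matches to the E2F motif TTTNNCGC on either strand, 2 of which overlap.
Mcm6: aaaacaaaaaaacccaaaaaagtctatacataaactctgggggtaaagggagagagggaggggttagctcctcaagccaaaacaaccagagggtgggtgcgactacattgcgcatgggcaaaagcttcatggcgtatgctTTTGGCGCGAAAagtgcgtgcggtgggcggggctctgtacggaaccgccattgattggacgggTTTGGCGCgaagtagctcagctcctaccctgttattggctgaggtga
The motif stood in 8 of the 32 windows found for the 39 replication genes (25.0%) and in none of the 54 windows of the muscle lists. Its share was 4.39% of all windows and 7.22% of the 8397 windows of genes tested.

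Some genes of smooth muscle contraction and of TGF-beta signalling fell. The largest fall was that of Actg2, the smooth muscle gamma-actin, a target of serum response factor. It read 12.72 and 13.03 in GM, 8.12 and 8.46 in siBRG1 and 8.86 and 8.92 in siScramble, and fell 23.9-fold (log2 difference -4.58, SE 0.30, adjusted p = 4.12e-07). Tagln, which encodes the actin-binding protein transgelin, was at 7.92 and 8.23 in GM and not detected in siBRG1 or siScramble, at least 6.74-fold lower (adjusted p = 9.18e-06). With Tagln2 (-1.63), Myl9 (-1.72) and Cald1 (-2.58) they made 5 of 15 smooth muscle contractile genes that fell, the same number as in siScramble, and the medians were -0.89 and -0.66. Ccn2, a matricellular protein induced by TGF-beta, fell 9.54-fold, from 12.08 and 11.96 in GM to 9.03 and 8.50 in siBRG1. The BMP antagonist Grem1 dropped below detection (8.11 and 8.33 in GM), at least 7.48-fold lower. Together with Inhba (-2.83), Bmp4 (-1.75) and Ltbp1 (-1.38) they were 5 of 17 genes of that list, and other Ltbp1 probes gave -0.05 and -0.01. Of 21 measured immediate early and serum response genes, 4 fell in siBRG1, Hbegf (-2.14) and Plaur (-1.96) among them, and 2 rose. In siScramble 4 fell and 3 rose, and the list medians were 0.07 and -0.24. The 2 that rose in siBRG1 were Fos (1.39) and Atf3 (at least 3.77-fold). Both were also called in siScramble (10.09 and 9.80, and 6.62 and 6.54), while the DM arrays read 6.09 and 6.18, and 4.57 and 5.14.

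Id proteins hold MyoD's partner proteins away from DNA in growing myoblasts. Id1 fell 13.1-fold, from 11.49 and 11.64 in GM to 7.95 and 7.77 in siBRG1 (adjusted p = 5.21e-06), below siScramble at 8.60 and 8.09, and the difference from siScramble was not called (-0.49, adjusted p = 0.788). Id2 fell by 1.56 at its brightest probe and by 1.06 and 0.08 at others that did not pass. Of 20 measured inhibitors of myogenesis 5 fell and 5 rose. Among the risers were the Notch target Heyl, which was not detected in GM (at least 4.93-fold), Hey1 (1.87) and Msc (2.56).

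Cholesterol synthesis rose as often in siBRG1 as in siScramble. In each, 11 of 18 measured enzymes and regulators of the pathway were called higher and none lower, and the medians were 1.36 and 1.44. Mvd, which makes isopentenyl diphosphate, read 7.02 and 7.38 in GM, 9.79 and 9.97 in siBRG1 and 9.73 and 9.54 in siScramble. It rose 6.4-fold (log2 difference 2.68, SE 0.25, adjusted p = 1.29e-05), to a level above both siScramble arrays by less than the spread of such differences (0.24, interval -0.30 to 0.79). Tm7sf2, a sterol reductase, rose by 2.06, and Fdps, farnesyl diphosphate synthase, rose by 1.82. Hsd17b7 rose by 1.59 at 1 probe and gave -0.24 at another. No member passed the limma test against siScramble, at an adjusted or an unadjusted p under 0.05, where the median difference was 0.07. Between 5 and 8 members were called when 1 of the 4 arrays was left out, and 2 with median scaling over all probes.

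The upstream window of Mvd (chr8:122443423-122443672, minus strand, GRCm38.p6, from RefSeq) is shown as an example of this list, with matches to CCAAT, on either strand, in capitals.
Mvd: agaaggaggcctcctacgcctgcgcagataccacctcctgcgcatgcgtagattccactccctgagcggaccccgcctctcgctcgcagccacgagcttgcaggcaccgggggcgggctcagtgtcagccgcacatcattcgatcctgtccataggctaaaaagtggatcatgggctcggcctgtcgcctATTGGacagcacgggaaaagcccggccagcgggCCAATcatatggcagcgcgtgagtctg
CCAAT, the motif bound by NF-Y, stood in 14 of the 15 windows found for the 18 genes (93.3%). It stood in 18 of the 54 muscle windows (33.3%) and in 20 of the 32 replication windows (62.5%). Its share was 34.5% of all windows and 36.8% of the windows of genes tested. The sterol element TCACNCCAC was searched as well and stood in 0 of the 15 windows and in 1.04% of all windows.

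**Figure D4:**
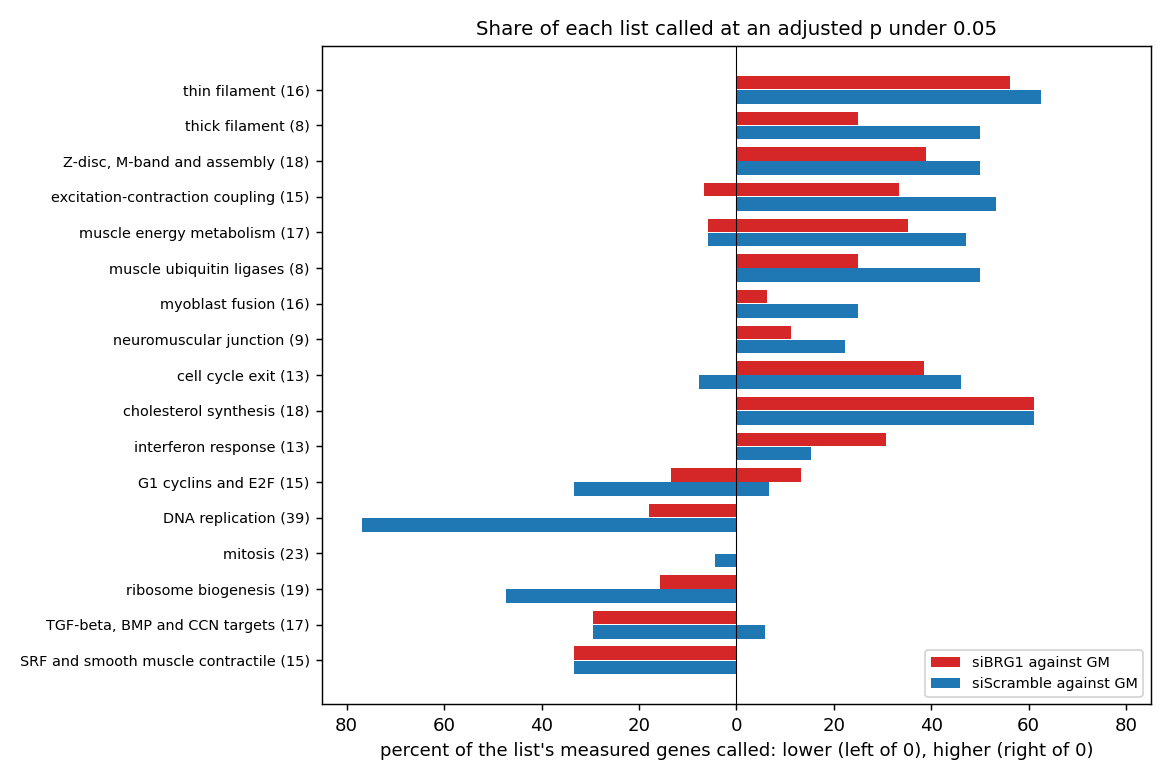
Share of each list's measured genes (number in brackets) called at an adjusted p under 0.05, higher to the right of 0 and lower to the left, in siBRG1 against GM (red) and siScramble against GM (blue), both of which use the same GM arrays. Cholesterol synthesis has 11 of 18 in both, and DNA replication has 7 of 39 in siBRG1 and 30 of 39 in siScramble.

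Some of the largest changes stood almost exactly at the siScramble level. Tgm2, a protein-crosslinking transglutaminase, read 7.09 and 6.09 in GM, 12.31 and 12.11 in siBRG1 and 12.20 and 12.19 in siScramble. Its 49.1-fold rise (log2 difference 5.62, adjusted p = 1.97e-07) left a difference of 0.02 from siScramble, with an interval of -0.67 to 0.71. Igfbp5, the insulin-like growth factor binding protein of myoblasts, was also called higher than GM (14.10 and 13.41), but it read 15.60 to 15.88 on every array in differentiation medium, near the top of the intensity scale, so its closeness to siScramble is not read. The receptor Igf2r rose by 2.27, Trp53inp1 by 2.03 and the kinase Dyrk1b by 2.15, and the ephrin receptor Epha2 fell by 2.40. These genes were chosen for the smallest difference from siScramble, so that closeness is a description, and the interval of each allows differences such as that given for Tgm2. Further large rises included the iron exporter Slc40a1 (34.0-fold) and the cofactor Vgll2 (20.1-fold, with other probes at 4.10 and 0.43 on the log2 scale). The myosin kinase Mylk (at least 14.9-fold) and the secreted hormone Stc1 (at least 12.8-fold) also rose. For Slc40a1, Vgll2, Mylk and Stc1 in turn, siBRG1 minus GM was 5.09, 4.33, 4.06 and 4.09. In siScramble it was 4.32, 3.67, 3.94 and 4.88. DM minus GM, which was not tested, was smaller for the first 3 (2.27, 1.04 and 2.69) and 5.55 for Stc1. Among the falls were the keratinocyte envelope genes Lce1g (-3.31) and Sprr2k (at least 7.48-fold), the annexin Anxa8 (-3.23), Mcpt8 (-3.13), Ass1 (-3.07), Fxyd5 (-3.04) and the macrophage growth factor Csf1 (-2.93).

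Counted over all genes, 353 of the 652 genes higher in siScramble than in GM were also called higher in siBRG1 (54.1%), and they made up 77.9% of the 453 siBRG1 rises. Of the 616 genes lower in siScramble 236 were also called lower in siBRG1 (38.3%), which was 83.7% of the 282 siBRG1 falls. Both comparisons used the same GM arrays, and the genes were chosen by their call in siScramble, so these counts describe and do not test. Among the siScramble calls the median siBRG1 change was 1.14 for the rises, where siScramble had 1.47, and -0.94 for the falls, where siScramble had -1.34. Taken from the siBRG1 calls instead, the medians were 1.54 and 1.52 for the rises and -1.39 and -1.48 for the falls.

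Losing a call is not a difference, so the change was named incomplete only where siBRG1 also differed from siScramble by the test, toward GM. The test of siBRG1 against siScramble called 29 genes (0.28%), 11 higher (0.106%) and 18 lower (0.174%), and 835 (8.07%) at an unadjusted p under 0.05. Of these, 18 were incomplete changes, 14 rises and 4 falls, named by the direction in siScramble. Against GM, 6 of the 18 (3 and 3) were still called. Among the 14 rises, the siBRG1 mean was below GM for Gsta1, Gsta2, Prl2c2, Prl2c3, Prl2c4, Klhl30 and Pkp1. Those differences ran from -0.06 (Gsta2) to -1.51 (Prl2c2) and none was called. The number was sensitive to single arrays: 1 without either siBRG1 array or without siScramble replicate 1, 3 without siScramble replicate 2, and 14 and 13 without GM replicates 1 and 2. It was 0 with median scaling over all probes and 95 with array weights. With the BeadChip as a fixed block it was 19, of which 13 were shared. The calls of Cdc6, Ly6c1, Pla1a, Ranbp3l and Slco4a1 against siScramble were lost with that block. Among the 14 rises the DM arrays lay above both GM arrays for 6, overlapped them for 3 and lay below them for 5, so for 8 of these rises the DM arrays did not stand above GM. For the 4 falls the DM arrays all lay below GM.

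For 6 of the incomplete rises both DM arrays stood above both GM arrays, a difference that was not tested. Fndc5, the precursor of irisin, read 4.90 and 5.06 in GM, 7.06 and 6.82 in siBRG1, 8.62 and 8.24 in siScramble and 8.93 and 9.51 in DM. It rose (1.96, adjusted p = 0.000482) to 56.9% of the siScramble change on the log2 scale (siBRG1 minus siScramble -1.49, adjusted p = 0.0426), and the other 3 Fndc5 probes gave -1.04 to -1.49 against siScramble without passing over all probes. Parm1, a mucin-like membrane protein, was at 5.39 and 5.47 in GM, 8.90 and 9.34 in siBRG1 and 10.58 and 10.82 in siScramble. It reached 70.0% of that change. Lrrn1, a leucine-rich repeat membrane protein, was undetected in GM and at 7.28 and 7.24 in siBRG1 (at least 3.97-fold higher), against 8.83 and 8.91 in siScramble. Klhl30, a muscle kelch protein, did not rise: it was at 7.35 and 7.33 in GM, 6.79 and 6.73 in siBRG1 and 8.94 and 8.64 in siScramble (siBRG1 minus siScramble -2.03, adjusted p = 0.0224). The desmosomal plakophilin Pkp1 (7.54 and 7.23 in siBRG1, 7.85 and 8.35 in GM, 9.32 and 9.08 in siScramble) also stood below both GM arrays, and Tspan32 was detected on 1 of the 2 siBRG1 arrays and not in GM.

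The largest difference from siScramble was in a gene that was low in DM. Gsta1, a glutathione transferase, read 9.14 and 8.90 in GM, 8.25 and 8.52 in siBRG1, 11.38 and 12.12 in siScramble and 6.65 and 6.08 in DM. Its difference from siScramble was -3.37 (adjusted p = 0.000617), and its siBRG1 arrays were below those of GM and siScramble alike. Gsta1 was also below both siScramble arrays in cells given siRNA against BAF60b (9.17 and 9.42) or BAF60c (9.57 and 10.20). Low Gsta1 relative to siScramble was therefore not particular to siBRG1, and the differences of these 2 groups were not tested. Gsta2 followed it (7.93 and 7.96 in siBRG1, 7.94 and 8.06 in GM, 10.52 and 10.96 in siScramble). Prl2c2, a proliferin, a secreted relative of prolactin, read 10.22 and 9.92 in GM, 8.31 and 8.81 in siBRG1, 11.20 and 11.92 in siScramble and 4.70 and 4.53 in DM, and Prl2c3 and Prl2c4 differed from siScramble by -2.77 and -2.55. With siRNA against BAF60b Prl2c2 read 8.89 and 10.05, and against BAF60c 9.75 and 11.04, again below both siScramble arrays. The members of each family are near-identical copies, so 1 transcript may light several of these probes. Gstm2 and Mgst2, also enzymes of the glutathione pathway, were lower than in siScramble (-1.46 and -1.79) without a call in either comparison with GM. Depp1 (5.66 and 5.52 in siBRG1, 8.24 and 7.70 in siScramble), the phospholipase Pla1a and Ly6c1 stayed near GM in siBRG1 while siScramble was higher. For Ly6c1 the arrays given siRNA against BAF60c (10.56 and 10.35) overlapped those of siScramble (10.46 and 10.31), unlike Gsta1 and Prl2c2.

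The incomplete falls were led by Sema7a, a membrane-anchored semaphorin, which read 11.31 and 10.46 in GM, 8.61 and 8.42 in siBRG1, 6.71 and 6.32 in siScramble and 6.13 and 5.98 in DM. It fell (-2.36, adjusted p = 0.000221) through 54.1% of the siScramble change. Cdc6, which loads the MCM helicase at origins, read 8.87 and 8.84 in GM, 7.82 and 7.56 in siBRG1 and 6.04 and 6.48 in siScramble. Its fall of 1.16 (adjusted p = 0.0116) was 44.9% of that in siScramble, and the fall lost its call when any of the 4 arrays was left out. The difference from siScramble was 1.43 (adjusted p = 0.0426), a call kept in 9 of 17 alternatives. That call was lost with the BeadChip as a fixed block, with only the groups compared, with both median scalings and without any 1 of the siBRG1 and siScramble arrays. The transporter Slco4a1 fell by 1.04 (adjusted p = 0.0286) and was not detected in siScramble, and its fall lost the call with the BeadChip as a fixed block, with both median scalings and when any of the 4 arrays was left out. Ranbp3l stayed at 6.38 and 6.52, where GM had 6.47 and 6.51 and siScramble 4.96 and 5.28, and a second Ranbp3l probe gave -0.32 against siScramble in place of 1.33.

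**Figure D5:**
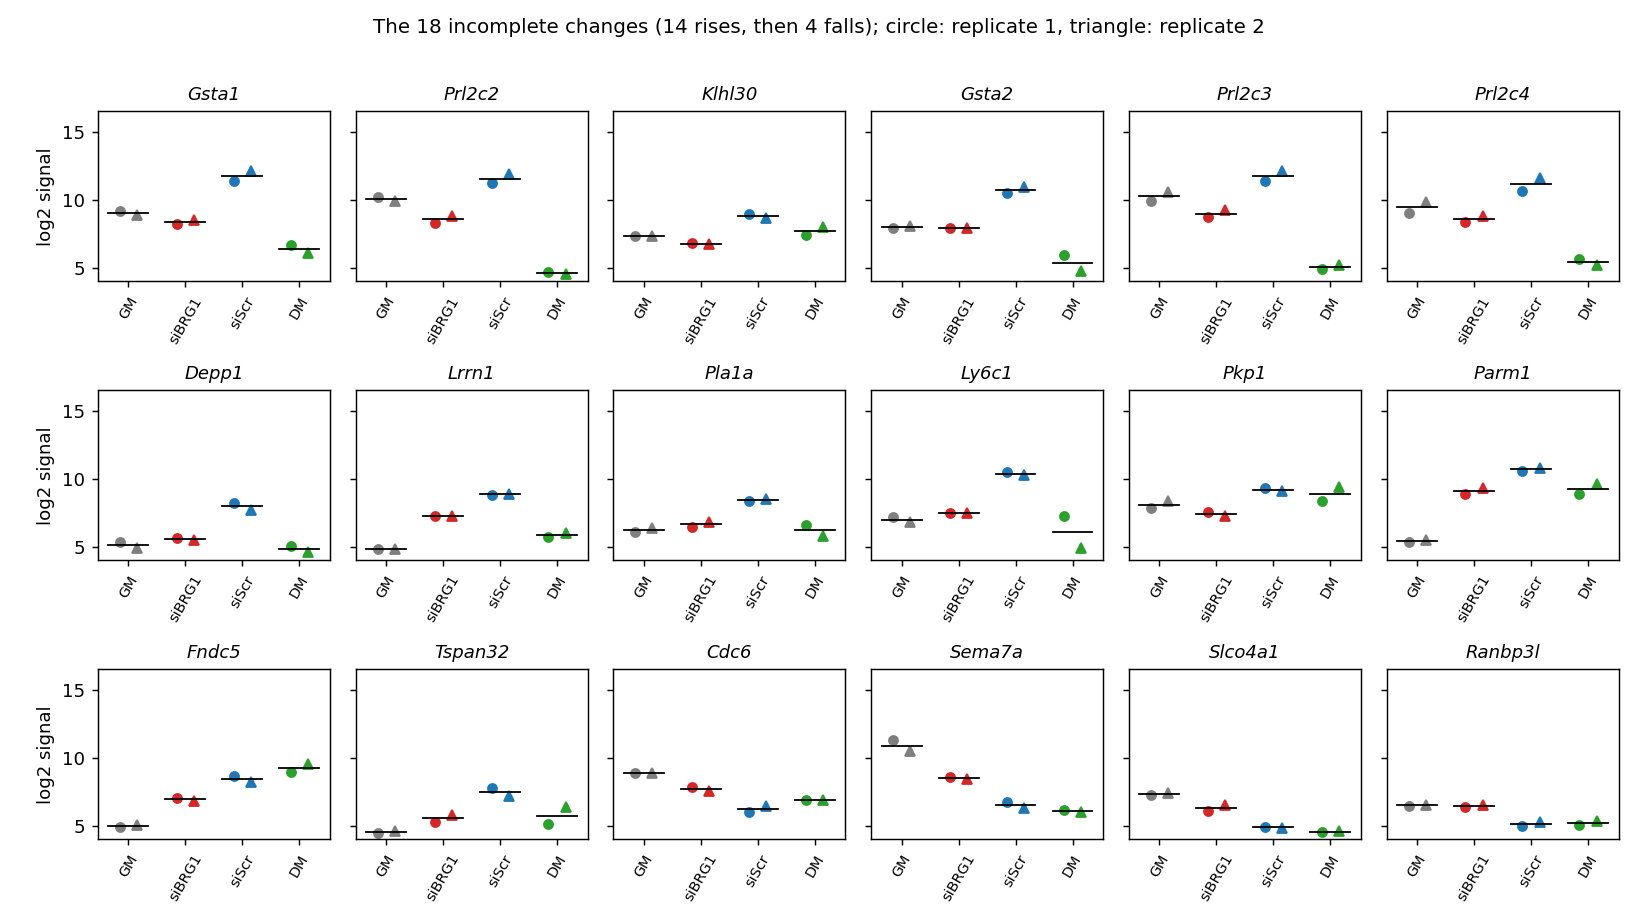
Log2 signal (y axis) of the 18 incomplete genes on the GM, siBRG1, siScramble (siScr) and DM arrays, with a circle for replicate 1, a triangle for replicate 2 and a line for the mean. In all 18 the siBRG1 arrays stand on the GM side of both siScramble arrays, and for Gsta1, Gsta2 and the Prl2c genes the DM arrays lie below GM.

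A further 9 genes were called in siBRG1 against GM and against siScramble in the same direction. The calls against siScramble were lost when any of the 4 siBRG1 and siScramble arrays was left out, except that of Hba-a1 without siBRG1 replicate 1. With the BeadChip as a fixed block those of Ccnd2, Crabp1, Lce1f, Mustn1 and Aqp1 were lost, and that of Lce1f also with the replicate block. Hba-a1, an alpha-globin, read 5.68 and 5.65 in GM, 10.91 and 11.51 in siBRG1, 9.05 and 9.25 in siScramble and 6.13 and 6.29 in DM. It rose 46.8-fold over GM (adjusted p = 6.68e-08) and exceeded siScramble by 2.06 (adjusted p = 0.00796). The lysophosphatidic acid receptor Lpar4 rose by 2.68 and exceeded siScramble by 1.45. The others that rose were Ccnd2, the secreted glycoprotein Lgals3bp (1.91), the neurofilament Nefm (1.69, second probe 0.55), the retinoic acid binding protein Crabp1 (at least 2.32-fold) and Lce1f (1.72), and siScramble was not called against GM for any of these 5. The call of Lgals3bp against GM was lost when any of the 4 arrays was left out. Mustn1, a small nuclear protein of the musculoskeletal system, fell to 8.28 and 8.19 from 9.39 and 9.65 in GM, where siScramble had 10.03 and 9.58, a call lost when any of the 4 arrays was left out. The water channel Aqp1 fell to 9.54 and 9.66 from 11.38 and 11.27, where siScramble had 10.96 and 11.18 and DM 9.26 and 9.77.

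Interferon response genes were called higher for 4 of 13 in siBRG1 and 2 of 13 in siScramble, with medians of 0.68 and 0.31, and for 1 to 3 in siBRG1 when 1 of the 4 arrays was left out. Oasl2 was undetected in GM and at least 2.40-fold higher in siBRG1 (6.60 and 6.47), and siScramble stood at 5.94 and 6.02. Isg15 was at least 1.74-fold higher in siBRG1 and undetected in both GM and siScramble. The difference from siScramble passed for Lgals3bp alone, with a list median of 0.44. At an unadjusted p under 0.05, 6 of the 13 were higher than in siScramble and 0 lower, where 8.07% of all genes differed. Of the ribosome biogenesis genes, whose products build ribosomal subunits in the nucleolus, 3 of 19 fell (Ncl, Nop56 and Rrp12, by 1.61, 1.49 and 0.96). The share of all genes called lower was 2.73% in siBRG1 and 5.95% in siScramble. In siScramble 9 of the 19 fell, and the list medians were -0.81 and -0.99. Between 0 and 2 of them fell when 1 of the 4 arrays was left out. The ATF4 target Trib3 rose by 2.06, 1 of 21 stress genes beside 7.1% of all, with a second probe at 0.31, and its call was lost without either siBRG1 array, without GM replicate 2 and with median scaling over all probes. Collagen VI genes Col6a1 and Col6a2 rose by 2.34 and 2.23 and the proteoglycan Dcn by 2.91 (second probe 1.34, not passing), while the metalloproteinase inhibitor Timp1 fell by 1.93, and 5 of 31 matrix genes rose and 5 fell.

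Many markers of other cell types were absent. The detection filter kept 3 of 12 adipocyte, 7 of 12 osteoblast and chondrocyte, 5 of 12 neuronal and 2 of 12 macrophage and endothelial markers. Adipoq, Fabp4 and Plin1 of adipocytes, Runx2 and Sp7 of osteoblasts, Acan of chondrocytes, Tubb3 and Snap25 of neurons, Cd68 and Adgre1 of macrophages and Pecam1 and Cdh5 of endothelium did not reach the detection filter. Pparg, 1 of 3 adipocyte markers kept, fell from 7.83 and 7.77 to 5.92 and 6.19 in siBRG1, and siScramble read 6.15 and 6.97. None of the 7 osteoblast and chondrocyte markers kept, among them Bglap, was called by limma, and 0 were at an unadjusted p under 0.05. On at least 1 array, 5 of the 7 were detected in GM and 1 in siBRG1. The summed level of the 7 was 4207.5 and 4565.2 in siBRG1 and 3751.6 and 4847.8 in GM. The 2 macrophage and endothelial markers kept, Csf1r and Kdr, were not called. Of 5 neuronal markers kept, Map2, Nefm and Gap43 were higher in siBRG1 than in GM (1.61, 1.69 and 1.51), while the summed level of the 5 was 661.2 and 645.7 in siBRG1 and 578.01 and 696.12 in GM. The neuronal Stmn2 differed by -0.93 (adjusted p = 0.052). Against 7.1% of all genes called, the count of 3 became 1 or 2 when 1 of the 4 arrays was left out, and Map2 was higher still in siScramble (2.72).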

How the data were processed

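Total RNA of C2C12 cells was hybridised to Illumina BeadChips, 12 arrays in 6 groups of 2. The deposited scanner table held linear intensity values and a detection p-value for each of 45281 probes, per the file headers, without normalization between arrays. The deposited processed table held intensity values of 23165 probes, quantile normalized by the authors as the values show, with a median of 164. No label or header names the software of either step. Columns were matched to samples by the descriptions in the labels, and 0 columns were left unmatched. Gene names came from the platform annotation, in which 19589 probes had 1 name, 8 several and 3568 none.

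Here the deposited intensities were background corrected with the detection p-values and quantile normalized (limma 3.58.1 in R 4.3.3, neqc, offset 16), which gave log2 values. A probe entered the tests (17565 did) if its detection p-value was under 0.05 on 2 or more arrays, and each of 10346 genes took its brightest kept probe, with 3438 genes having several. Linear models over all 12 arrays (6 residual and 8.17 prior degrees of freedom) gave the contrasts, with Benjamini-Hochberg adjustment. The script was tested on simulated data. The number of arrays limits the precision. A gene not detected on either array of the dim group is given as "at least" a fold, from the higher of its own signal and the faintest detected probe of each array.

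Replicate numbers came from the labels. Deviations from group means correlated at 0.32 between siBRG1 and GM arrays of 1 number and at 0.12 between siBRG1 and siScramble, and nothing shows that a number marks a shared culture. The members and gene lists were chosen with earlier results of these data known. Named genes were a fixed set, the largest changes, list members with the smallest adjusted p or a difference from siScramble, incomplete changes, and the called genes nearest to siScramble. Mcm6 and names that complete a small count were chosen after their values were seen. Promoter windows are the 250 bases before the start in RefSeq (GRCm38.p6), searched on both strands. Alternatives changed the background correction, scaling, source table, samples in the fit, array weights, BeadChip and replicate blocks, detection filter, probe rule and each array in turn. Sequence for genes outside the window table was not used here. Figures were drawn with matplotlib 3.10.9.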

Additional observations from a re-analysis of the deposited data

Results flagged for a closer look

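Probes that the annotation gives no single gene name were not part of the gene comparisons, and some of them differed as well. Of 2439 such probes kept, 94 were called in siBRG1 against GM (3.85%, limma, adjusted over all kept probes), 59 higher and 35 lower. The probe ILMN_2674351 read 5.21 and 5.30 in GM and 8.78 and 8.77 in siBRG1, a difference of 3.51 (adjusted p = 2.725e-06), and siScramble read 8.89 and 8.80. The probe ILMN_2699621 read 9.10 and 9.01 in GM and 5.03 and 5.64 in siBRG1, a difference of -3.72 (adjusted p = 8.439e-06).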

How the results depend on the processing

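The number of genes called in siBRG1 against GM was 735 and became 193 with median scaling over all probes, 1371 with only the groups compared, 1545 with array weights, 1184 without the DM arrays, and 325 to 362 when 1 array was left out. For siScramble against GM, 1268 became 735 (122 higher, 613 lower) with that scaling, 1904 without the DM arrays, and 546 to 960 with 1 array left out. For siBRG1 against siScramble, 29 became 0 with that scaling, 11 with scaling over kept probes, 133 with array weights, 46 with the BeadChip as a random block, 72 without the DM arrays, and 1 to 3 with 1 array left out. The 18 incomplete changes became 28 without background correction (15 of them shared), 0 and 7 with the 2 scalings (0 and 6 shared), 95 with array weights, 29 with the random block, 51 without the DM arrays (all 18 shared in these 3), and 1 to 14 with 1 array left out. The authors' values also gave 18, of which 11 were shared. With the BeadChip as a fixed block, 25 genes were called in siBRG1 against siScramble, and 19 changes were incomplete, 13 of them shared. Smarca4 against siScramble, -0.92, was not called over all genes, and its own 95% interval, which excluded 0, took in 0 without background correction (-0.50), with scaling over all probes (-0.51) and in the authors' values (-0.48), and ranged from -1.20 to -0.63 with 1 array left out. Scaling over kept probes and leaving out the DM arrays were chosen after seeing the data. The causes were not tested.

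With the replicate number as a block the counts were 864, 1424, 34 and 23 incomplete changes, and Smarca4 gave -0.92, with an interval that still excluded 0. Of 106 named genes called in siBRG1 against GM, 57 kept the call under all 17 alternatives and 49 lost it under some, 43 of them with scaling over all probes and 33 with an array left out, and 0 reversed. The 29 calls against siScramble were kept in 6 to 16 of their 17 alternatives, and 0 reversed.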
